A study of Mus musculus with 4 samples.

Results

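The genes described here make, carry, sense and destroy retinoic acid, the small lipid hormone derived from vitamin A. They are Aldh1a1, Aldh1a2, Aldh1a3, Cyp26a1, Cyp26b1, Cyp26c1, Crabp1, Crabp2, Rarb and Dhrs3, chosen by name, and all 10 were found among the 52636 gene identifiers counted. Their RNA was measured in mouse otic ectoderm, in cells sorted by fluorescence from otocysts, the closed vesicles from which the inner ear forms. There were 2 libraries labelled Brg1cKO, for a conditional knockout of the chromatin remodeler Brg1, and 2 labelled Control, all made from total RNA of sorted cells. The labels give genotype and tissue alone. The Cre driver, the exons deleted, the genotype of the controls, the age of the embryos and whether replicates came from separate litters or sorts are details that no source used here states. The p-values therefore cover library-to-library spread alone, part of which may be technical.

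Retinoic acid is made from retinaldehyde by the dehydrogenases of the ALDH1A family and is hydroxylated for disposal by the enzymes of the CYP26 family. Cells that make it and cells that clear it lie side by side in the embryo, and the resulting gradient patterns the hindbrain, the pharyngeal arches and the otocyst, where an excess or a lack of retinoic acid disturbs inner ear formation. The acid enters the nucleus, binds receptors such as RARB that sit on DNA as partners of RXR proteins, and switches on genes that include Rarb itself, Cyp26a1 and Dhrs3, which then limit the signal.

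The best known binding site of these receptors is a direct repeat of a short motif with 5 bases between the copies. RefSeq sequence of GRCm38.p6, the patch level of the mm10 build, was held for 8 of the 10 genes, as 11 start sites, and the 250 bases before each were searched on both strands for the motif AGGTCA repeated in the same direction, with either copy also allowed in the common variant form AGTTCA, in the form GGGTCA that begins with another purine, or in the form GGTTCA that combines these changes. The repeat with 5 bases between the copies was found before 2 of the 11 start sites, those of Rarb and Cyp26a1, and before 29 of 32851 start sites of all genes (0.0883%). With 1 or 2 bases between the copies it was found before 0 of the 11 and before 0.164% and 0.174% of all start sites. No sequence was held for Aldh1a3 or Crabp2, so neither was searched at any spacing. Both repeats are shown because the groups lay apart for Rarb and overlapped for Cyp26a1 in the values below. In the lines that follow, the first is the Rarb site with 6 bases on either side (chr14:16575507-16575535, minus strand) and the second is the stretch before Cyp26a1 (chr19:37697558-37697797, plus strand), with the repeat in capitals.
Rarb: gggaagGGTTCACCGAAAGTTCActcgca
Cyp26a1: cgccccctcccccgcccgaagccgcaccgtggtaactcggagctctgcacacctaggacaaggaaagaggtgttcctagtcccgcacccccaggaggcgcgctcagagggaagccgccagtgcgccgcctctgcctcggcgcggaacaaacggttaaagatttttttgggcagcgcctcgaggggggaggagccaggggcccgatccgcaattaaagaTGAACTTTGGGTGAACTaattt

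The Cyp26a1 repeat lies on the strand opposite to the gene. Read on the repeat's own strand, with the motif copies in capitals, the pair line up as follows.
Rarb repeat: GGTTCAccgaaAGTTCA
Cyp26a1 repeat: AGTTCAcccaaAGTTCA
Of 17 bases 15 were identical, and the differences were G1A and G9C, with the Rarb base first and positions counted from the first base of the repeat. In GENCODE M21 the Rarb site lies inside an annotated exon of a longer Rarb transcript, and the Cyp26a1 repeat lies before the annotated gene. A match to these letters describes the sequence, and binding was not measured here.

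Reads assigned to genes numbered 29361382 and 25875555 in the Brg1cKO libraries and 15357265 and 19132360 in the Control libraries. The groups also stood apart in the share of records not aligned (9.54% and 9.41% in the Brg1cKO libraries, 20.9% and 19.1% in the Control libraries) and in genes with a read (20859 and 20902 in the Brg1cKO libraries, 17266 and 17086 in the Control libraries), and the part of either in the values below was not tested. Values per library are given below as CPM, a gene's count as a proportion of the TMM-scaled total, or as CPM per kilobase of annotated exon where levels of different genes are compared. Smarca4, the gene for Brg1, stood at 891 and 848 CPM in the Brg1cKO libraries and at 816 and 815 CPM in the Control libraries (log2 fold change 0.09, adjusted p = 0.817 by edgeR). The exons deleted are not known here, so a count over the whole gene does not check the labels. Summed over 10 markers of otic epithelium, the level was 214 and 231 CPM in the Brg1cKO libraries, against 1363 and 1483 CPM in the Control libraries, with none of the 10 at 0 reads in all libraries. Endothelial markers summed to more than the otic ones in each library, so the sorted cells were not otic epithelium alone.

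Aldh1a3 and Cyp26c1, which head the synthesis and the breakdown families in the Control libraries, stood lower in the Brg1cKO libraries, while Aldh1a2 and Rarb stood higher there. All 10 genes passed the filter on low counts, and 8 had negative log2 fold changes, where 48.5% of the 16557 genes tested did. The median log2 fold change was -0.42 over the 10 genes and 0.03 over all genes tested. In 4 genes (Aldh1a1, Aldh1a3, Cyp26c1 and Crabp2) each Brg1cKO library lay below each Control library, where 17.8% of all genes tested did so. In 2 genes (Aldh1a2 and Rarb) each Brg1cKO library lay above each Control library, where 26.3% of all genes tested did so. None of the 10 was called by edgeR's quasi-likelihood test at a Benjamini-Hochberg adjusted p under 0.05, a threshold that 0.0302% of genes passed (5 of 16557). At an unadjusted p under 0.05 there were 2 of the 10, Aldh1a3 and Cyp26c1, both lower, where 4.80% of all genes tested were lower. DESeq2 called the same pair, both lower, and 7.41% of all genes it tested, while limma voom called 0 of the 10 and 0.326% of all genes. Replicates of these genes spread somewhat more widely than those of the whole table, with a median absolute log2 ratio between replicates of 0.57 in the Brg1cKO libraries and 0.82 in the Control libraries, against 0.37 and 0.75 over all genes tested.

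**Figure D1:**
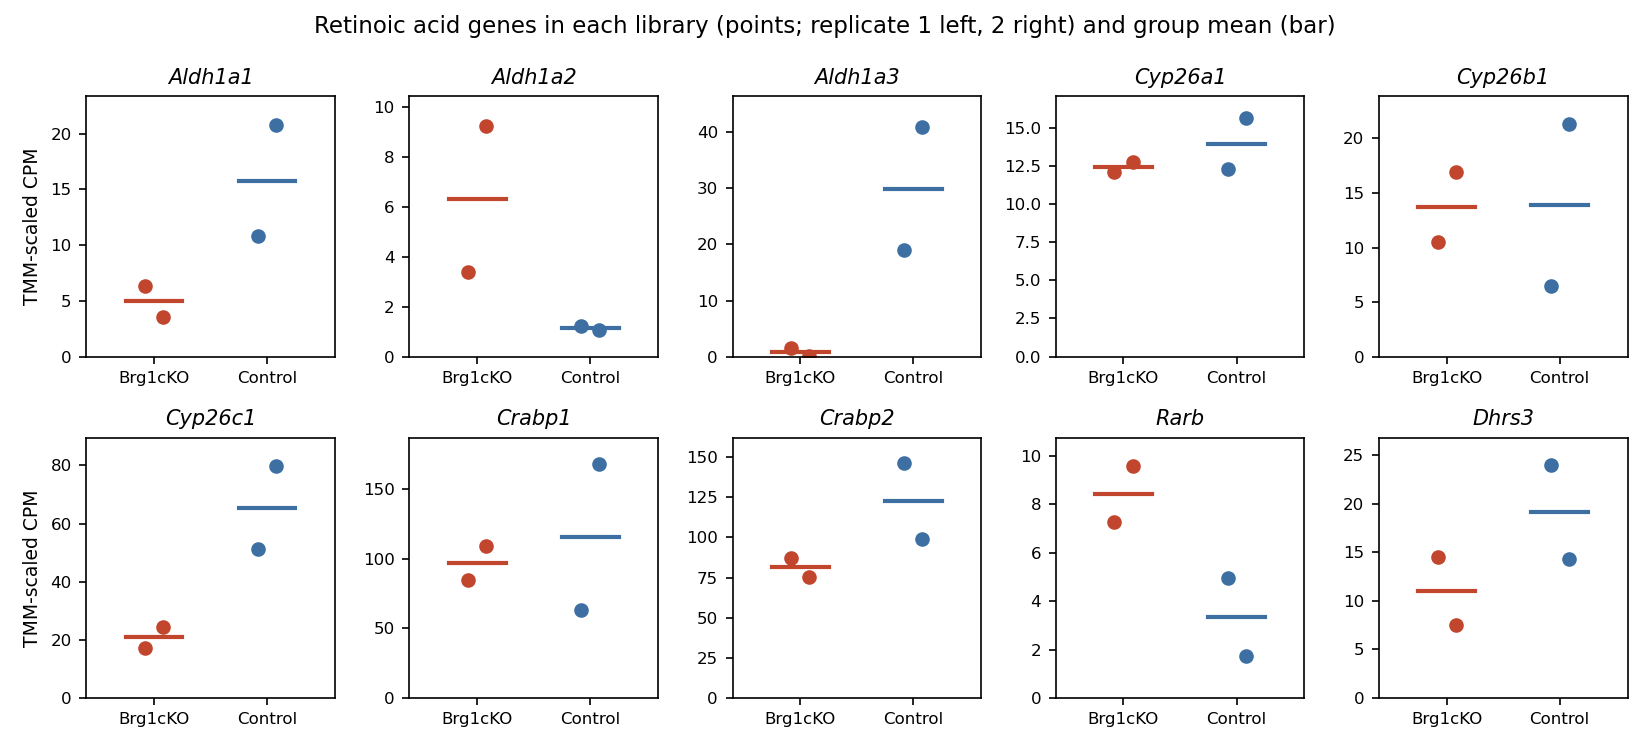
TMM-scaled CPM of the 10 retinoic acid genes, 1 panel a gene, with a point for each library, a bar at the group mean and Brg1cKO left of Control. The groups lie apart for Aldh1a1, Aldh1a2, Aldh1a3, Cyp26c1, Crabp2 and Rarb and overlap for Cyp26a1, Cyp26b1, Crabp1 and Dhrs3.

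Among the synthesis enzymes, Aldh1a3 (ENSMUSG00000015134, chromosome 7, 66390890 to 66427517, mm10) encodes the dehydrogenase known in mouse from the developing eye, nose and ear. It stood at 1.61 and 0.116 CPM in the Brg1cKO libraries, from 47 and 3 reads, and at 19.0 and 40.9 CPM in the Control libraries, from 292 and 771 reads. Each Control library was far above each Brg1cKO library, although Brg1cKO replicate 1 also stood 13.9 times above Brg1cKO replicate 2. The counting interval of the 3 reads runs from 0.0239 to 0.338 CPM (95%, exact Poisson, counting error only), which does not reach replicate 1. On the log2 scale the difference was -5.11 ± 1.35 (SE; 95% interval -8.28 to -1.93), and it did not pass in edgeR (adjusted p = 0.310). With a Control library left out, the log2 fold change was -5.5 without replicate 1 and -4.5 without replicate 2. With a Brg1cKO library left out, it was -7.93 without replicate 1 and -4.21 without replicate 2.

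Aldh1a1 (ENSMUSG00000053279, chromosome 19, 20492715 to 20643465) encodes the dehydrogenase known from the dorsal retina and adult tissues. It stood at 6.35 and 3.59 CPM in the Brg1cKO libraries and at 10.8 and 20.8 CPM in the Control libraries. The groups did not overlap, but the gap between them was narrower than the distance between the Control replicates. The log2 fold change of -1.66 ± 1.02 (SE; 95% interval -4.05 to 0.72) did not pass (adjusted p = 0.622, edgeR).

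Aldh1a2 (ENSMUSG00000013584, chromosome 9, 71215789 to 71296243) encodes the enzyme that makes most retinoic acid in the early embryo, in trunk mesoderm, heart and epicardium. It ran the other way, at 3.38 and 9.26 CPM in the Brg1cKO libraries (99 and 240 reads) and at 1.23 and 1.06 CPM in the Control libraries (19 and 20 reads). Both Brg1cKO libraries lay above both Control libraries, and they stood 2.74 times apart from each other. The log2 fold change of 2.46 ± 1.75 (SE; 95% interval -1.64 to 6.55) did not pass (adjusted p = 0.695, edgeR).

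The makeup of the family is given next, although edgeR and limma voom called none of its genes and DESeq2 called Aldh1a3 alone. Per kilobase of exon, Aldh1a3 gave 11.1% and 0.518% of the ALDH1A total in the Brg1cKO libraries and 60.1% and 65.5% in the Control libraries. Aldh1a2 gave 47.8% and 84.5% in the Brg1cKO libraries and 7.97% and 3.46% in the Control libraries. Aldh1a1 gave 41.1% and 15.0% in the Brg1cKO libraries, against 31.9% and 31.1% in the Control libraries. The leading gene was therefore Aldh1a2 in each Brg1cKO library and Aldh1a3 in each Control library. The sum of the family was 3.13 and 4.84 CPM per kilobase in the Brg1cKO libraries and 6.84 and 13.5 CPM per kilobase in the Control libraries. The ratio of Aldh1a3 to Aldh1a2, in which the scaling of a library drops out, was 0.233 and 0.00613 in the Brg1cKO libraries and 7.54 and 18.9 in the Control libraries. For this ratio and for the sum, an exact two-sided permutation test gave p = 0.333, the smallest that 2 against 2 libraries allow.

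**Figure D2:**
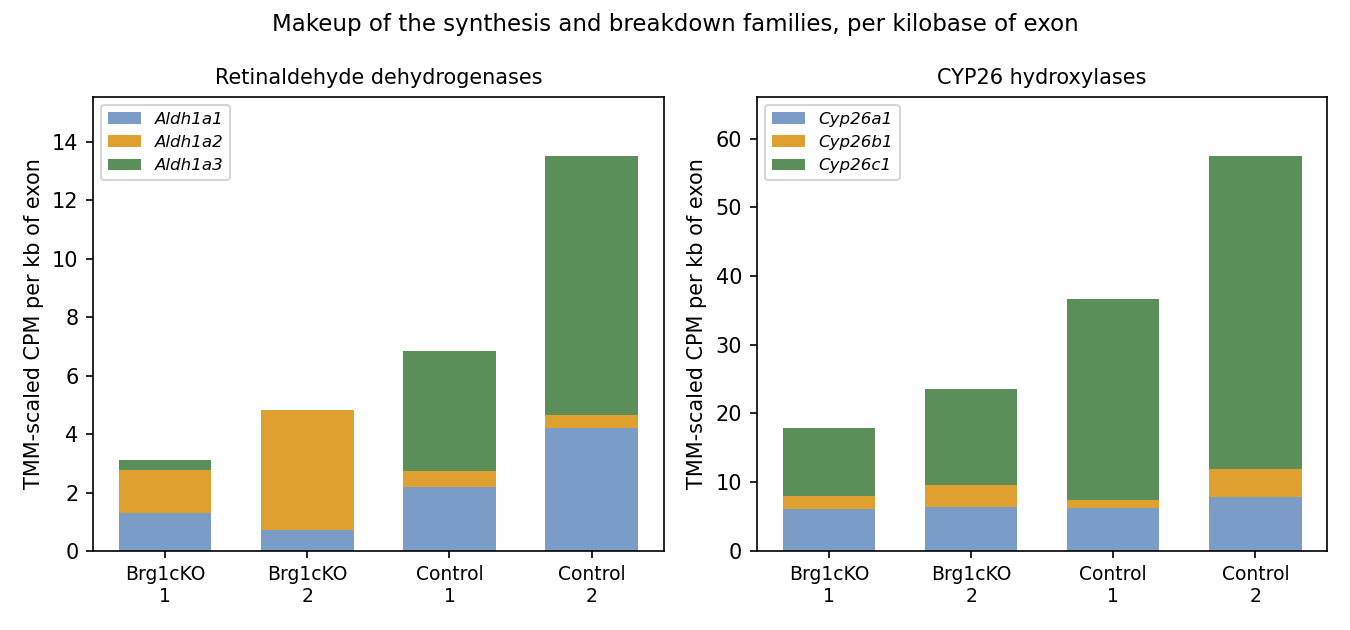
Stacked TMM-scaled CPM per kilobase of exon of the ALDH1A enzymes (left) and the CYP26 enzymes (right) in each library, with the Brg1cKO libraries left of the Control libraries. Aldh1a2 is the largest part of the ALDH1A bar in each Brg1cKO library and Aldh1a3 in each Control library, while Cyp26c1 is the largest part of the CYP26 bar in all 4 libraries.

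Among the breakdown enzymes, Cyp26c1 and Cyp26a1 are neighbours on chromosome 19, read in the same direction with 4399 bases and no annotated gene between them. Cyp26c1 (ENSMUSG00000062432, 37685581 to 37693398) is known from the hindbrain and the first arch of mouse embryos and clears both all-trans and 9-cis forms of the acid. It stood at 17.3 and 24.4 CPM in the Brg1cKO libraries and at 51.2 and 79.8 CPM in the Control libraries. Each Brg1cKO library lay below each Control library, and the gap between the groups was wider than the distance between the Brg1cKO replicates but narrower than that between the Control replicates. Its level was 3.14-fold lower by the fit, a log2 fold change of -1.65 ± 0.45 (SE; 95% interval -2.72 to -0.59) that did not pass (adjusted p = 0.327, edgeR). With a Control library left out, the log2 fold change was -1.9 without replicate 1 and -1.3 without replicate 2. With a Brg1cKO library left out, it was -1.4 without replicate 1 and -1.9 without replicate 2.

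Cyp26a1 (ENSMUSG00000024987, 37697798 to 37701536), the hydroxylase that retinoic acid itself induces and the gene with the repeat printed above, stood at 12.1 and 12.7 CPM in the Brg1cKO libraries and at 12.3 and 15.6 CPM in the Control libraries. The groups overlapped, and the log2 fold change of -0.17 had a 95% interval from -2.03 to 1.69 (adjusted p = 0.970, edgeR). That interval takes in differences in either direction, and it does not give the size of difference that the test could detect. Cyp26b1 (ENSMUSG00000063415, chromosome 6, 84571414 to 84593908) encodes the third hydroxylase, known from hindbrain, limb and gonad. It stood at 10.5 and 16.9 CPM in the Brg1cKO libraries, between the 6.43 and 21.3 CPM of the Control libraries. Its log2 fold change was -0.02 with TMM scaling and 0.02 with upper quartile scaling, so it had no stable direction (adjusted p = 0.998 with either, edgeR).

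The CYP26 total was 18.0 and 23.5 CPM per kilobase in the Brg1cKO libraries and 36.7 and 57.5 CPM per kilobase in the Control libraries. Cyp26c1 made up 55.1% and 59.3% of it in the Brg1cKO libraries and 79.9% and 79.4% in the Control libraries. Its ratio to its neighbour Cyp26a1 was 1.62 and 2.17 in the Brg1cKO libraries and 4.73 and 5.80 in the Control libraries. The groups did not overlap in the total, the share or the ratio. The sums of synthesis and of breakdown transcripts were both lower in the Brg1cKO libraries, and the ratio of the ALDH1A total to the CYP26 total was 0.174 and 0.206 in the Brg1cKO libraries and 0.186 and 0.235 in the Control libraries, which overlap (exact two-sided permutation p = 0.667, where 0.333 is the smallest possible). For the CYP26 total and for the ratio of the neighbours the same test gave 0.333. These family sums and ratios are transcript levels of a mixed sort and say nothing of enzyme activity, and their p-values are not adjusted.

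The binding proteins of the cytosol were the most abundant of the 10 genes. Crabp2 (ENSMUSG00000004885, chromosome 3, 87948666 to 87953376), which hands retinoic acid to its receptors, stood at 87.5 and 75.2 CPM in the Brg1cKO libraries and at 147 and 98.8 CPM in the Control libraries. The groups did not overlap, but the gap between them was narrower than the spread of the Control libraries. The log2 fold change of -0.59 ± 0.30 (SE; 95% interval -1.29 to 0.11) did not pass (adjusted p = 0.508, edgeR). Without Control replicate 1 the log2 fold change was -0.28, and without Control replicate 2 it was -0.87. Crabp1 (ENSMUSG00000032291, chromosome 9, 54764748 to 54773110), which is held to favour breakdown of the acid and is abundant in neural crest and hindbrain, stood at 84.8 and 109 CPM in the Brg1cKO libraries, inside the range of the Control libraries at 62.95 and 168 CPM. Control replicates of Crabp1 stood 2.67 times apart on 969 and 3165 reads. Its log2 fold change was -0.25 (95% interval from -1.31 to 0.81, adjusted p = 0.911, edgeR). It was -0.79 without Control replicate 1 and 0.60 without Control replicate 2, so 1 library set its direction.

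Rarb (ENSMUSG00000017491, chromosome 14, 16430839 to 16819156, minus strand), the receptor whose transcription retinoic acid induces through the repeat printed above, stood at 7.28 and 9.57 CPM in the Brg1cKO libraries (213 and 248 reads) and at 4.94 and 1.75 CPM in the Control libraries (76 and 33 reads). Both Brg1cKO libraries lay above both Control libraries, with a gap smaller than the distance between the Control replicates. The log2 fold change of 1.33 ± 1.38 (SE; 95% interval -1.91 to 4.58) did not pass (adjusted p = 0.812, edgeR). Exons of Rarb overlap those of Top2b over 1793 bases and those of Gm48162 over 227 bases, both read from the other strand, and reads there could belong to either gene unless strand was used in the counting. Dhrs3 (ENSMUSG00000066026, chromosome 4, 144892827 to 144928209), the reductase that turns retinaldehyde back into retinol and is itself induced by retinoic acid, stood at 14.6 and 7.52 CPM in the Brg1cKO libraries and at 23.97 and 14.3 CPM in the Control libraries. The groups overlapped narrowly, at 14.6 against 14.3 CPM, and the log2 fold change of -0.79 ± 0.79 (SE) did not pass (adjusted p = 0.799, edgeR). The 3 genes named here as induced by the acid thus stood in different places: Rarb higher in each Brg1cKO library, Cyp26a1 and Dhrs3 with overlapping groups. Other genes of the 10 may also be induced by it. None of these differences passed the test, and the difference between the genes was not tested.

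**Figure D3:**
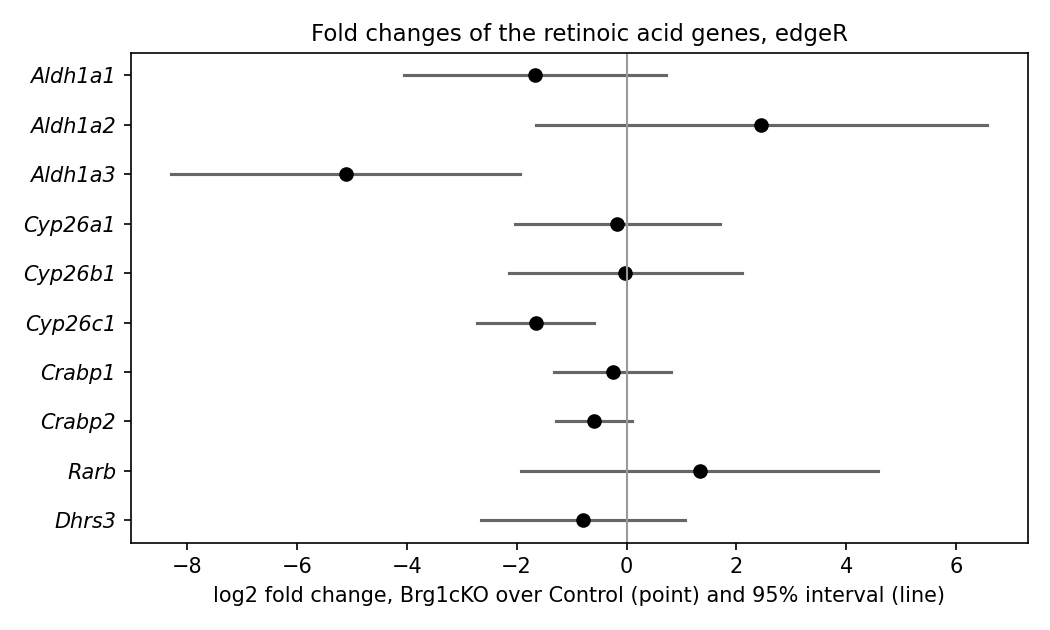
Log2 fold changes of Brg1cKO over Control for the 10 genes by edgeR (points) with 95% intervals (lines). The intervals of Aldh1a3 (-8.28 to -1.93) and Cyp26c1 (-2.72 to -0.59) lie below 0 and the other 8 intervals include it, before any adjustment for the number of genes tested.

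The order of levels per kilobase of exon was led by the same 4 genes in each group. In the Brg1cKO libraries the means were 121 CPM per kilobase for Crabp1, 61.5 for Crabp2, 11.9 for Cyp26c1 and 6.26 for Cyp26a1. In the Control libraries they were 144 for Crabp1, 92.8 for Crabp2, 37.5 for Cyp26c1 and 7.03 for Cyp26a1. Crabp1 and Crabp2 overlapped in the Control libraries but not in the Brg1cKO libraries, and Cyp26a1, Dhrs3 and Aldh1a3 overlapped in the Control libraries. Aldh1a3 had the lowest level of the 10 in each Brg1cKO library, at a mean of 0.186 CPM per kilobase, and stood at 6.48 in the Control libraries. Aldh1a2, at 2.79 CPM per kilobase in the Brg1cKO libraries, had the lowest mean of the 10 in the Control libraries, at 0.507, where it overlapped with Rarb at 0.635. The binding proteins thus stood above every enzyme in all 4 libraries, and the breakdown family stood above the synthesis family in each.

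Of 16 further genes of retinoid uptake, storage and retinol oxidation, 9 were tested and none was called by edgeR, with 5 negative and a median log2 fold change of -0.01. DESeq2 and limma voom called 0, beside 7.41% and 0.326% of all genes. At an unadjusted p under 0.05 there was 1, lower, where 4.80% of all genes tested were. That gene was Stra6, the membrane receptor that takes up retinol from its carrier, at 16.5 and 15.2 CPM in the Brg1cKO libraries and 33.8 and 46.2 CPM in the Control libraries (adjusted p = 0.368, edgeR). Rdh11, a retinal reductase, stood at 34.9 and 26.8 CPM in the Brg1cKO libraries and 49.6 and 61.4 CPM in the Control libraries. Rdh14 overlapped, at 5.81 and 11.3 CPM in the Brg1cKO libraries and 5.98 and 19.8 CPM in the Control libraries. Rdh10 makes most of the retinaldehyde of the embryo and is a gene chosen with its values in view. It stood at 32.0 and 32.1 CPM in the Brg1cKO libraries, within the 26.4 and 38.1 CPM of the Control libraries.

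Of 11 other receptors and their coregulators, all were tested and none was called by edgeR, with 8 negative and a median log2 fold change of -0.30. At an unadjusted p under 0.05 there were 3 lower and 1 higher, where 4.80% and 7.66% of all genes tested were. DESeq2 called Rara and Rxrg, both lower, beside 7.41% of all genes it tested, and limma voom called 0, beside 0.326%. Rxrg, the receptor partner with the most restricted expression, stood at 3.11 and 4.13 CPM in the Brg1cKO libraries and 26.0 and 38.6 CPM in the Control libraries (log2 fold change -3.16 ± 0.73 SE, adjusted p = 0.244, edgeR). Rara, the receptor that most cells carry, stood at 73.0 and 78.9 CPM in the Brg1cKO libraries and 171 and 135 CPM in the Control libraries (log2 fold change -1.01 ± 0.25 SE, adjusted p = 0.285, edgeR). Rarg, the remaining receptor of retinoic acid, stood at 66.2 and 60.7 CPM in the Brg1cKO libraries and 117 and 90.3 CPM in the Control libraries (adjusted p = 0.386, edgeR). So Rara and Rarg lay lower in each Brg1cKO library and Rarb higher. Ncoa3, a coactivator, stood at 148 and 165 CPM in the Brg1cKO libraries and 107 and 111 CPM in the Control libraries (adjusted p = 0.391, edgeR).

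Of 22 genes known as targets of retinoic acid, 16 were tested and none was called by edgeR, with 12 positive and a median log2 fold change of 0.59. In 10 of them each Brg1cKO library lay above each Control library, where 26.3% of all genes tested did so. DESeq2 and limma voom each called Nr2f1, lower, beside 7.41% and 0.326% of all genes. At an unadjusted p under 0.05 there were 2 higher and 1 lower, where 7.66% and 4.80% of all genes tested were. The 2 higher ones, Hoxa4 and Rarres2, are also among those 10, and with 0 reads in both Control libraries they passed the filter on low counts only through the Brg1cKO libraries, so they could not but differ. Hoxa2 (0 and 315 reads in the Control libraries) and Hoxb4 (0 and 41 reads there) are among the 10 as well. They too passed the filter only through the Brg1cKO libraries, so the count of 10 leans on genes that the filter favoured. Nr2f1, an orphan nuclear receptor, stood at 189 and 169 CPM in the Brg1cKO libraries and 414 and 431 CPM in the Control libraries (log2 fold change -1.24 ± 0.15 SE, adjusted p = 0.0816, edgeR). Hoxa4, a homeobox gene with a retinoic acid response, had 56 and 22 reads in the Brg1cKO libraries and 0 in both Control libraries. Against a floor of 3 counts over the Control group, its pooled level was 16.1-fold higher. That value leaves out the spread between libraries and is not a lower limit of the difference. Rarres2, which encodes chemerin, had 17 and 20 reads in the Brg1cKO libraries and 0 in both Control libraries, 7.65-fold higher by the same floor and with the same limit. Both floor values also lie above the list's median, so using them could not alter it, whatever the data. The median, like the count of 10, leans on genes that the filter favoured. Summed over the list, the level ran the other way, at 1127 and 1107 CPM in the Brg1cKO libraries and 1307 and 1234 CPM in the Control libraries. In the Control libraries Nr2f1 was the largest part of that sum.

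**Figure D4:**
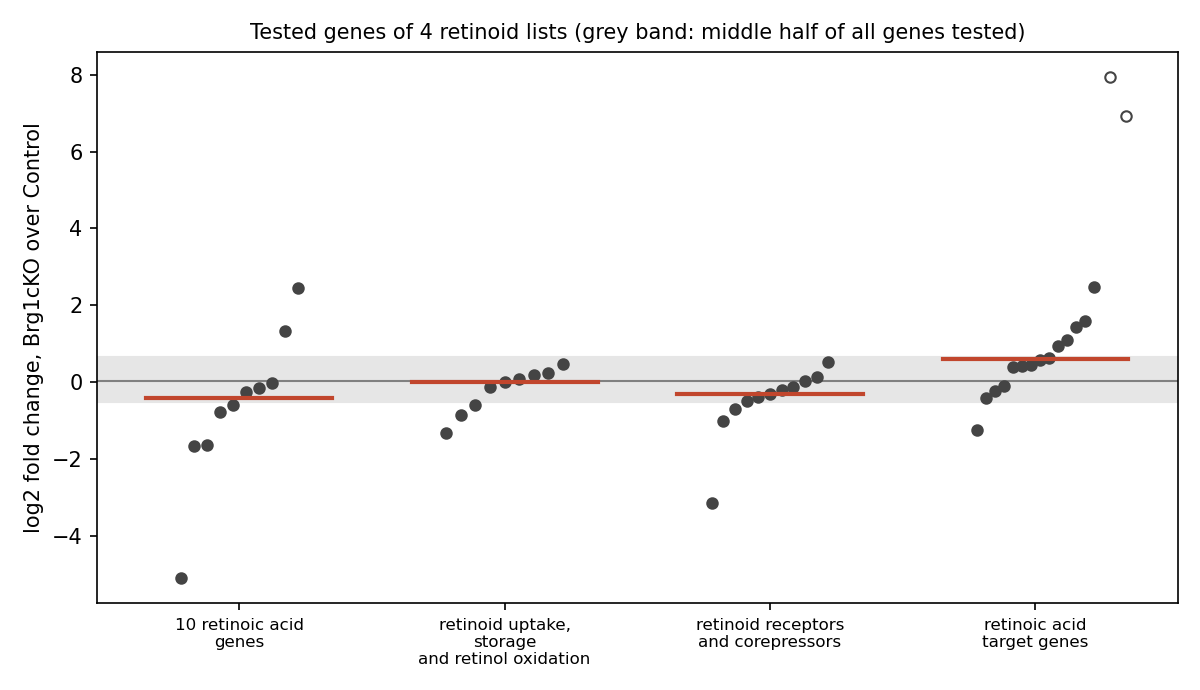
Log2 fold changes of Brg1cKO over Control for the tested genes of 4 retinoid lists (points), with each list's median (red bar) and the median and quartiles of all genes tested (grey line and band, -0.53 to 0.64). Open circles are Hoxa4 and Rarres2, at 0 reads in both Control libraries, whose fitted values depend on the prior count; the list medians run from -0.42 to 0.59.

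The values above come from a mixed sort in which the lists of cell type markers also differed, and in bulk RNA fewer cells of a type and less RNA per cell cannot be told apart. The otic list was 6.40-fold lower in the Brg1cKO libraries by its mean sum, and 3.79-fold lower without Oc90, at 169 and 182 CPM in the Brg1cKO libraries and 581 and 751 CPM in the Control libraries. All 10 of its members were negative. At an unadjusted p under 0.05, 7 were lower, beside 4.80% of all genes tested. DESeq2 called 7 and limma voom 2, all lower, beside 7.41% and 0.326% of all genes. By edgeR 1 was called, Oc90, an otoconial matrix protein (44.6 and 49.1 CPM in the Brg1cKO libraries, 782 and 732 CPM in the Control libraries). Epcam stood at 42.8 and 37.1 CPM in the Brg1cKO libraries and 144 and 205 CPM in the Control libraries. Over the same libraries Aldh1a3 was 34.4-fold lower, Cyp26c1 3.14-fold and Aldh1a1 3.17-fold lower by their fits. The part of the otic list's difference in these values was not tested.

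The list of heart, epicardium and striated muscle, where Aldh1a2 is known to be active, summed to 561 and 564 CPM in the Brg1cKO libraries and 133 and 166 CPM in the Control libraries, with 9 of 10 positive. None was called by edgeR or limma voom, 7 were higher and 1 lower at an unadjusted p under 0.05, and DESeq2 called 6 higher and 1 lower, beside 7.66% higher and 4.80% lower of all genes at that p and 7.41% called by DESeq2. Some of the higher ones, such as Tnni1 (14 and 0 reads in the Control libraries) and Upk3b (0 and 21 reads there), passed the filter only through the Brg1cKO libraries. Actc1 stood at 145 and 133 CPM in the Brg1cKO libraries and 17.3 and 34.2 CPM in the Control libraries, and Myh6 at 113 and 119 CPM in the Brg1cKO libraries and 18.0 and 7.64 CPM in the Control libraries. Isl1, the lower gene of the list, stood at 42.6 and 29.2 CPM in the Brg1cKO libraries and 78.9 and 87.6 CPM in the Control libraries. The list's epicardial markers Wt1, Tcf21 and Upk3b, singled out after their values were seen, summed to 34.2 and 44.7 CPM in the Brg1cKO libraries and 5.52 and 1.11 CPM in the Control libraries. Like Upk3b, Wt1 (61 and 0 reads in the Control libraries) and Tcf21 (24 and 0 reads there) passed the filter only through the Brg1cKO libraries. Aldh1a2 and these markers were thus higher in the same libraries, and the part of the markers' cells in the Aldh1a2 level was not tested. White blood cell markers summed to 1211 and 1156 CPM in the Brg1cKO libraries and 272 and 228 CPM in the Control libraries, with 6 of 6 positive. Of these, edgeR called 1 (Mrc1), 5 were higher at an unadjusted p under 0.05, DESeq2 called 5 and limma voom 4, all higher. Of all genes tested, 7.66% were higher at that p, and edgeR called 0.0302%, DESeq2 7.41% and limma voom 0.326%. Mrc1 stood at 424 and 397 CPM in the Brg1cKO libraries and 46.3 and 71.7 CPM in the Control libraries, and Csf1r at 298 and 289 CPM in the Brg1cKO libraries and 106 and 56.7 CPM in the Control libraries.

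Neural crest and hindbrain are the tissues where Crabp1 is best known. Neural crest and glia markers summed to 446 and 457 CPM in the Brg1cKO libraries and 490 and 509 CPM in the Control libraries, with 3 of 7 tested negative. None was called by edgeR or limma voom, and 1 was higher and 1 lower both at an unadjusted p under 0.05 and with DESeq2. Of all genes tested, 7.66% were higher and 4.80% lower at that p, and DESeq2 called 7.41%. Ets1, which endothelium also expresses, stood at 269 and 286 CPM in the Brg1cKO libraries and 257 and 222 CPM in the Control libraries, and Erbb3 at 49.97 and 72.2 CPM in the Brg1cKO libraries and 118 and 236 CPM in the Control libraries. Without Ets1 the list summed to 177 and 170.2 CPM in the Brg1cKO libraries and 233 and 287 CPM in the Control libraries. Tfap2b, the higher gene of the list and like that sum chosen with values in view, stood at 22.9 and 25.1 CPM in the Brg1cKO libraries and 2.53 and 1.33 CPM in the Control libraries. Hindbrain and neural tube markers summed to 87.2 and 115 CPM in the Brg1cKO libraries and 188 and 230 CPM in the Control libraries, with 6 of 8 tested negative. None was called by edgeR or limma voom. At an unadjusted p under 0.05, 2 were higher and 2 lower, beside 7.66% and 4.80% of all genes. DESeq2 called the same numbers, beside 7.41% of all genes. The 2 higher, named after their values were seen, were Pax3, with 152 and 232 reads in the Brg1cKO libraries, and Sox1, with 90 and 128 reads there, both at 0 reads in the Control libraries. They passed the filter only through the Brg1cKO libraries. Against a floor of 3 counts over the Control group, their pooled levels were 79.4-fold and 45.1-fold higher, values that leave out the spread between libraries. The part of these lists in the Crabp1 values was not tested. Otx2, a gene of forebrain, midbrain and otocyst rather than hindbrain, stood at 21.9 and 17.0 CPM in the Brg1cKO libraries and 93.5 and 58.8 CPM in the Control libraries. Without Otx2, left out after its values were seen, the list summed to 65.3 and 98.1 CPM in the Brg1cKO libraries and 94.1 and 171 CPM in the Control libraries, and the groups overlapped.

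Head mesenchyme summed to 2357 and 2375 CPM in the Brg1cKO libraries and 2832 and 3099 CPM in the Control libraries, endothelium to 2360 and 2329 CPM in the Brg1cKO libraries and 2103 and 1852 CPM in the Control libraries, and none of their 16 genes was called by edgeR. At an unadjusted p under 0.05 there were 2 lower, both in mesenchyme, and 2 higher, both in endothelium, while DESeq2 called 2 lower and 1 higher and limma voom 1 lower. Of all genes tested, 4.80% were lower and 7.66% higher at that p, and DESeq2 called 7.41% and limma voom 0.326%. Red blood cell markers summed to 194 and 178 CPM in the Brg1cKO libraries and 569 and 575 CPM in the Control libraries, with 5 of 5 tested negative. None was called by edgeR, 3 were lower at an unadjusted p under 0.05, DESeq2 called 3 and limma voom 1, all lower, beside the shares just given. Every marker of the 8 lists had reads in at least 1 library.

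**Figure D5:**
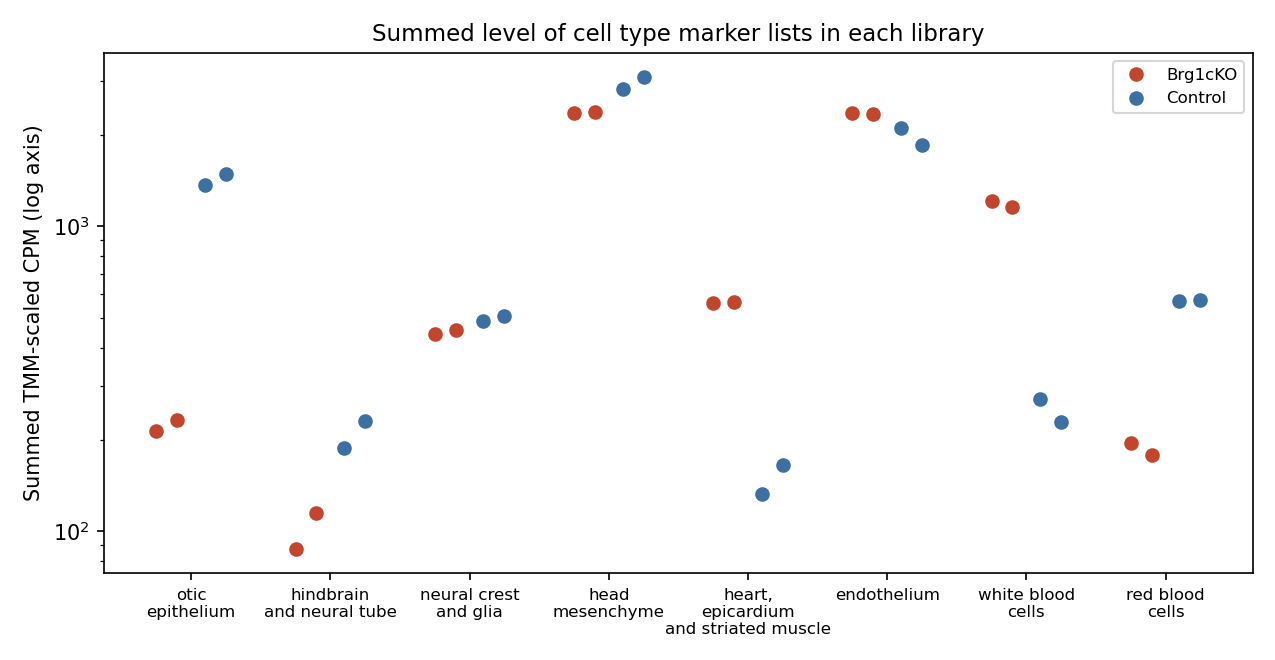
Summed TMM-scaled CPM of 8 marker lists in each library, on a log axis, with the Brg1cKO libraries left of the Control libraries. The otic list stands at 214 and 231 CPM in the Brg1cKO libraries against 1363 and 1483 CPM in the Control libraries, while the heart and white blood cell lists stand higher in the Brg1cKO libraries.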

How the data were processed

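RNA-seq of sorted mouse otic ectoderm was available as 4 libraries, 2 labelled Brg1cKO and 2 labelled Control. The authors deposited raw read counts per Ensembl gene. The submitters' processing notes name HISAT2, HTSeq, DESeq2 and mm10. How the reads were assigned to genes, by strand or not and with which annotation, is not given in the sources used here. Records naming no gene, 36.0% and 36.3% of all records in the Brg1cKO libraries and 51.8% and 50.7% in the Control libraries, were left out. GENCODE M21 gave symbols, positions and exon lengths for 52403 of 52636 identifiers. Sequences came from RefSeq for GRCm38.p6.

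Counts were filtered by filterByExpr (minimum count 10), scaled by TMM and tested with edgeR 4.0.16 in R 4.3.3 (robust quasi-likelihood F-test, group as term, Benjamini-Hochberg over 16557 genes). SEs and 95% intervals were computed from the F statistic. The read count of a gene sets its precision: Poisson intervals and floors cover counting error only, since reads are not independent molecules. Replicate numbers do not pair samples by any label, so no block was used. The 10 genes, lists, naming rule (up to 4 genes of each pathway list with the smallest p, up to 2 of each marker list with the highest level) and tests were chosen with earlier results of these data known. A few genes that the naming rule takes are not reported here. Alternatives numbered 15, with DESeq2 1.42.0 and limma 3.58.1 (voom) among them.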

Additional observations from a re-analysis of the deposited data

How the results depend on the processing

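The 10 genes and the table as a whole were refitted under 15 alternatives. The count of called genes, 5 in the report, was 417 with every gene of at least 1 count, 10 with a minimum count of 50, 1115 with DESeq2, 54 with limma voom, 62 with the newer edgeR moderation and 140 with the replicate number as a block, and it ran from 33 to 3519 with a library left out (45 and 33 without Brg1cKO replicates 1 and 2, 3519 and 3355 without Control replicates 1 and 2). Of the 10 retinoic acid genes, 0 in the report, 1 was called with every gene of at least 1 count (Aldh1a3), 2 with DESeq2, and 0 to 3 with a library left out, where the lone library of a group is assumed to vary like the other group. The 3 were Aldh1a3, Cyp26c1 and Crabp1 without Control replicate 1, and Aldh1a3, Cyp26c1 and Crabp2 without Control replicate 2, in fits that called 17.6% and 16.9% of all genes tested. The count of negative log2 fold changes ran from 6 to 8. Cyp26b1 turned positive with upper quartile scaling (0.022), limma voom (0.083), the replicate block (0.18), without Brg1cKO replicate 1 (0.29) and without Control replicate 2 (1.07), and Crabp1 without Control replicate 2 (0.60). The cause was not tested. With a library left out, the log2 fold change of Cyp26b1 ran from -0.64 to 1.07 and that of Crabp1 from -0.79 to 0.60. The other 8 genes kept their direction in all 15. No label pairs the replicate numbers. The replicate differences of the 2 groups had a correlation across genes of -0.0053, which cannot show whether replicates shared a litter or sort. Under the block 0 of the 10 genes were called. With 2 libraries a group, the 95% intervals of Aldh1a2, Rarb and Cyp26a1 include both no difference and differences of more than 2-fold.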
